A study of Rattus norvegicus with 30 samples.

Results

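The comparison sets lungs of 5 rats that inhaled copper oxide nanoparticles at 13.2 mg/m3 (high dose) against lungs of 5 rats that inhaled them at 3.3 mg/m3 (low dose), all sampled on day 28, which was 22 days after the last exposure. These 10 arrays, 1 per rat, were chosen by their labelled dose and time from the 30 arrays of the series, and 18889 genes were tested on them. All rats were adult male Wistar Unilever (HsdCpb:WU), an outbred stock, 8 weeks old on arrival. They breathed the particles through the nose only, at a dose equivalent to 6 hours a day, on 5 consecutive days. The 5 air control rats of day 28 (0 mg/m3), and the air, low dose and high dose rats of day 6 (5 each), sampled 1 day after the same 5 exposures, serve for reference. Whole lung was used, so fewer cells of a type and less RNA per cell cannot be told apart.

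Cells of the lung, like those of most organs, keep a daily rhythm through a loop of transcription factors. BMAL1 pairs with CLOCK or NPAS2 and switches on genes that carry an E-box, among them the Per and Cry repressors that shut the pair down again, the nuclear receptors Nr1d1 and Nr1d2 (REV-ERB alpha and beta), and the D-box activators Dbp and Tef. The REV-ERB proteins in turn repress Bmal1, Npas2, Cry1 and Nfil3, the last of which encodes the repressor that competes with DBP and TEF at D-boxes. Because of this wiring, the RNA of Bmal1 and Npas2 peaks at the opposite time of day from that of Dbp and Nr1d1.

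On day 28 the 6 largest differences among the called genes, from 4.69 to -1.92 on the log2 scale, were all in those clock genes: Dbp, Nr1d1, Per2 and Tef were higher at the high dose, Bmal1 and Npas2 lower. limma (group means of 6 groups, Benjamini-Hochberg adjustment, threshold 0.05) called 30 of 18889 genes, or 0.159%. Of these, 16 genes (0.0847%) were higher and 14 genes (0.0741%) lower at the high dose. The 30 hold 10 clock genes, out of 17 measured members of a clock gene list. The list was drawn up with earlier results of these data known. The 5 high and 5 low values did not overlap for any of the 30 called genes, against 121 genes (0.641%) of all those tested. Without adjustment, 557 genes (2.95%) had a p under 0.05.

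**Figure D1:**
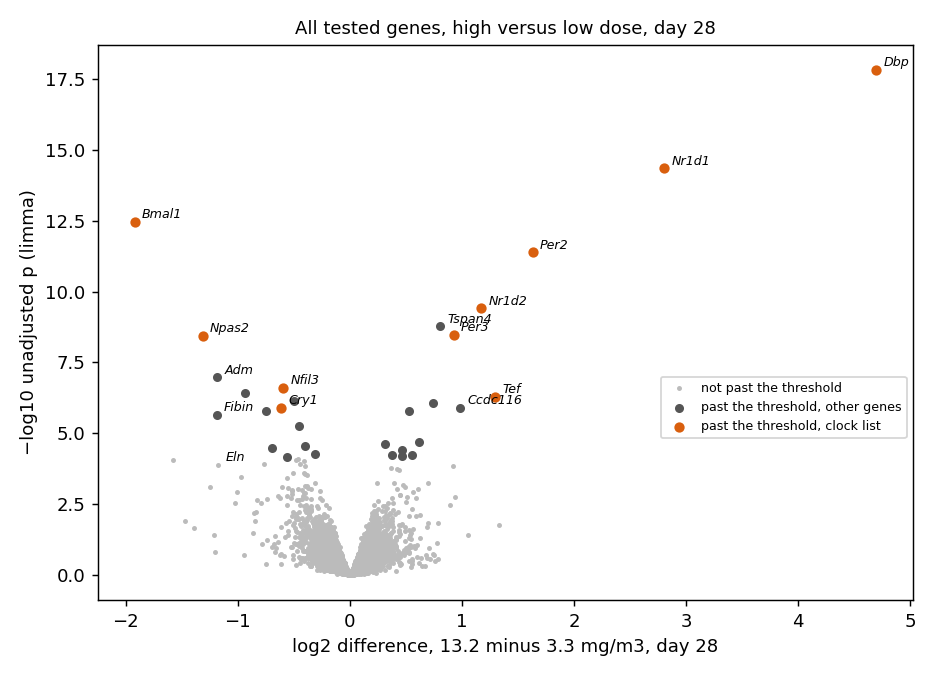
Log2 difference between the high and low dose on day 28 (x axis) against −log10 of the unadjusted limma p (y axis) for the 18889 tested genes, 1 point per gene. Dbp, Nr1d1 and Bmal1 lie farthest from the cloud of grey points, and Eln lies just below the called genes.

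The arrays were alike in quality. Cy5, the dye on the lung RNA, had a median intensity of 224 to 425 per array, with 61.5% to 69.5% of probes well above background. Across genes, which are not independent replicates, log ratios of rats within a dose group correlated at 0.922 to 0.984 and those of rats of different doses at 0.916 to 0.98. Lung-defining genes were high in every rat of both doses: the log2 ratio to the reference was 9.58 to 10.63 for Sftpc, the surfactant protein C gene of alveolar type II cells, and 3.92 to 4.38 for Ager, an alveolar type I marker. The arrays of high dose rat 81 and low dose rat 52 each held bright background artefacts. With both rats left out (chosen after seeing the data) limma called 21 genes, all 21 of them among the 30, and again 10 clock genes.

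The promoters of 6 of the called clock genes are shown. In 5 of them the letters match a motif marked below, and Dbp, the largest difference, has no match. The windows of Per3, Npas2 and Nfil3, which are not shown, have no match either. Each line gives the 250 bases before the gene's start (RefSeq, GRCr8), 5′ to 3′ on the gene's strand. Capitals mark the E-box CACGTG, the D-box TTATGNAA and the AGGTCA element that REV-ERB proteins bind, searched on both strands; the last motif was added after seeing the data.
Dbp (chr1:105312006-105312255, plus strand): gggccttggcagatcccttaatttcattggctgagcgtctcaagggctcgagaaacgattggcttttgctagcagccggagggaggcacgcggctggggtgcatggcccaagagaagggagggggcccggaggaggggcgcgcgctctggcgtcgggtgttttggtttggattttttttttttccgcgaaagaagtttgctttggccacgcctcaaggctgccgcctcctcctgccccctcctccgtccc
Nr1d1 (chr10:84229455-84229704, minus strand): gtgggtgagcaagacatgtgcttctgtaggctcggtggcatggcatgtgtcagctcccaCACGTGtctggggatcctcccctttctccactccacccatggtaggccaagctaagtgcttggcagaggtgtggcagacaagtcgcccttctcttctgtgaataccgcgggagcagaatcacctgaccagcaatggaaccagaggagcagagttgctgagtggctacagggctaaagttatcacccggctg
Tef (chr7:115206577-115206826, plus strand): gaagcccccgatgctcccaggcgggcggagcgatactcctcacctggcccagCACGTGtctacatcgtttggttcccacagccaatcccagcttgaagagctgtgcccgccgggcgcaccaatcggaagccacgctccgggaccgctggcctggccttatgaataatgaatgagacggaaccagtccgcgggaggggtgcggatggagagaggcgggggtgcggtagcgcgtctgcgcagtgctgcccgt
Per2 (chr9:99496994-99497243, minus strand): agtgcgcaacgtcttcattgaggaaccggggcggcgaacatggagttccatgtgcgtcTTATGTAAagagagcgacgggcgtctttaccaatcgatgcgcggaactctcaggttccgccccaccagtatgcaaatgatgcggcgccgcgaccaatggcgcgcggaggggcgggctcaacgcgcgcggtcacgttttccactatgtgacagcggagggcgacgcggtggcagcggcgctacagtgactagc
Nr1d2 (chr15:9954784-9955033, plus strand): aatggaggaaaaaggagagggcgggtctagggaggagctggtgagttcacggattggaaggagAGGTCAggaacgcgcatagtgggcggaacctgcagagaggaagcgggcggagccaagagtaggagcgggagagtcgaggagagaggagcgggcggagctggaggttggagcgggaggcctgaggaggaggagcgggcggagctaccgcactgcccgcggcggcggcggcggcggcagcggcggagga
Bmal1 (chr1:176766078-176766327, plus strand): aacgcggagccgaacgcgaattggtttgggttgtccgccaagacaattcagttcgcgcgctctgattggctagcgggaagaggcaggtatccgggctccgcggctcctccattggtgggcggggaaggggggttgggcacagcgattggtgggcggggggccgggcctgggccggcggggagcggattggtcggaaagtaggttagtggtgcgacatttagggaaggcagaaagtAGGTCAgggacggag
The windows of Nr1d1 and Tef hold an E-box 191 and 198 bases before the start, that of Per2 a D-box at 192 bases, and those of Nr1d2 and Bmal1 a AGGTCA element at 187 and 15 bases. None of the 3 motifs is in the Dbp window shown, nor in those of Per3, Npas2 and Nfil3, so 5 of the 9 called clock genes in the table hold one. Nr1d1 has a second start in the table, whose window has no match to these 3 motifs.

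Over all 33469 promoters of the table, 5.59% hold the E-box letters, 3.28% the D-box and 14.1% the AGGTCA element. Over the 9978 promoters of tested genes, the set the called genes come from, the shares were 7.82%, 1.84% and 11.4%. The table matched 19 of the 27 called genes with a symbol. Among 11 promoters of 9 genes that were higher at the high dose, 4 held an E-box (Tef, Nr1d1, Bri3 and Rasl10a, the last with 2 matches), 2 a D-box (Per2 and Fam76a) and 2 a AGGTCA element (Nr1d2 and Rasl10a). Among 11 promoters of 10 lower genes, 1 held an E-box (Kctd3), 0 a D-box and 1 a AGGTCA element (Bmal1). The metal element TGCACNC was in 2 of the 11 higher and 3 of the 11 lower promoters (10.3% of all), and the antioxidant element TGACNNNGC in 2 and 1 (10.1% of all). Among promoters of tested genes these shares were 11.4% and 12.5%. A match is a description of letters and not a site.

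Dbp, the D-box activator whose RNA has one of the widest daily swings known, differed most. Its log2 ratio was -2.37, -2.24, -2.42, -2.40 and -2.48 in low dose rats 52 to 56 and 2.29, 2.18, 2.01, 2.58 and 2.50 in high dose rats 80 to 84. Each group was tight and the groups lay far apart. The difference was 4.69 (SE 0.224), or 25.9-fold, with an adjusted p of 2.86e-14 (limma). Both other Dbp probes rose too, by 3.64 and 3.78. Within the 4 slides, each of which held rats of both doses, the difference was 4.51 to 4.87.

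Nr1d1, the main repressor of Bmal1, followed the same order. Its log2 ratio lay between -0.97 and -0.71 in the low dose rats and between 1.68 and 2.22 in the high dose rats, with no overlap. The difference was 2.80 (SE 0.183), or 6.98-fold (limma adjusted p = 4.27e-11), and 2.49 to 3 within slides. Nr1d2, its close relative, was 0.15, 0.18, 0.46, 0.54 and 0.19 in low dose rats 52 to 56 and 1.93, 1.16, 1.28, 1.46 and 1.57 in high dose rats 80 to 84. It rose by 1.17 (SE 0.125), or 2.25-fold (limma adjusted p = 1.49e-06), and by 2.09 from processed signals. High dose rat 80 stood highest for Nr1d2, whereas rats 80 and 82 stood highest for Nr1d1.

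Among the period genes, which encode repressors of the BMAL1 complex, Per2 and Per3 rose and Per1 did not pass. Per2 was -0.98, -0.67, -0.70, -0.89 and -0.98 in the low dose rats and 0.57, 0.66, 0.48, 0.95 and 1.28 in the high dose rats. The difference was 1.63 (SE 0.141), or 3.1-fold (limma adjusted p = 1.94e-08). Per3 lay between -0.52 and -0.20 in the low dose rats and between 0.35 and 0.69 in the high dose rats, and rose by 0.93 (SE 0.109, limma adjusted p = 8.6e-06), as did its 2 other probes, by 0.67 and 0.77; from processed signals it rose by 1.62. Per1, which also responds to glucocorticoids and stress, differed by 0.05 (SE 0.0648, limma adjusted p = 1), and its values overlapped. Tef, the second D-box activator, was 1.25, 1.31, 1.59, 1.18 and 1.1 at the low dose and 2.77, 2.40, 2.39, 2.03 and 3.33 at the high dose. It rose by 1.30 (SE 0.2), or 2.46-fold (limma adjusted p = 0.000796); in a fit of the 2 groups alone its adjusted p was 0.0535.

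Genes on the opposite arm fell. Bmal1, the activator of the loop, had log2 ratios of 0.76, 0.57, 0.32, 0.61 and 0.60 in low dose rats 52 to 56 and -1.58, -1.21, -1.03, -1.26 and -1.66 in high dose rats 80 to 84. It fell by 1.92 on the log2 scale (SE 0.15), 3.78-fold (limma adjusted p = 2.22e-09), with within-slide differences of -2.42 to -1.65; its second probe fell by 1.17. Npas2, which can stand in for CLOCK, was 1.54, 1.70, 1.48, 1.84 and 1.39 at the low dose and 0.11, 0.46, 0.40, 0.16 and 0.26 at the high dose. It fell by 1.31 (SE 0.155, limma adjusted p = 8.6e-06). The 2 Npas2 probes disagreed, since the dimmer one differed by -0.06 with an adjusted p of 1 over all probes in limma, and with probes averaged Npas2 fell by 0.68.

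Cry1, a repressor that partners the period proteins, was -0.17, 0.04, -0.08, -0.42 and -0.22 at the low dose and -0.76, -0.76, -1.02, -0.85 and -0.53 at the high dose. It fell by 0.62 (SE 0.1, limma adjusted p = 0.00148); in a fit of both groups alone its adjusted p was 0.121. Nfil3 lay between -0.96 and -0.83 at the low dose and between -1.75 and -1.30 at the high dose, and fell by 0.60 (SE 0.0878, limma adjusted p = 0.000461). Both changes were small beside those of Dbp and Bmal1, and the groups still did not overlap.

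The other 7 measured members of the clock list, which does not hold every clock gene, did not pass. Clock itself, the partner of BMAL1, differed by -0.23 (SE 0.132), Cry2 by 0.39 (SE 0.1, limma adjusted p = 0.211, or 0.0323 without low dose rat 54), Bhlhe40, a repressor of the loop, by 0.59 (SE 0.171, limma adjusted p = 0.438), and Wee1, a cell cycle kinase under clock control, by 0.39 (SE 0.126, limma adjusted p = 0.788). Usp2, a deubiquitinase with a daily rhythm, differed by 0.11 (SE 0.141). Ciart, a repressor, was not well above background on any low dose array and was so on 2 of the 5 high dose arrays, and it did not pass (limma adjusted p = 0.747). Rora, Hlf and Bhlhe41 were not measured under these symbols.

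**Figure D2:**
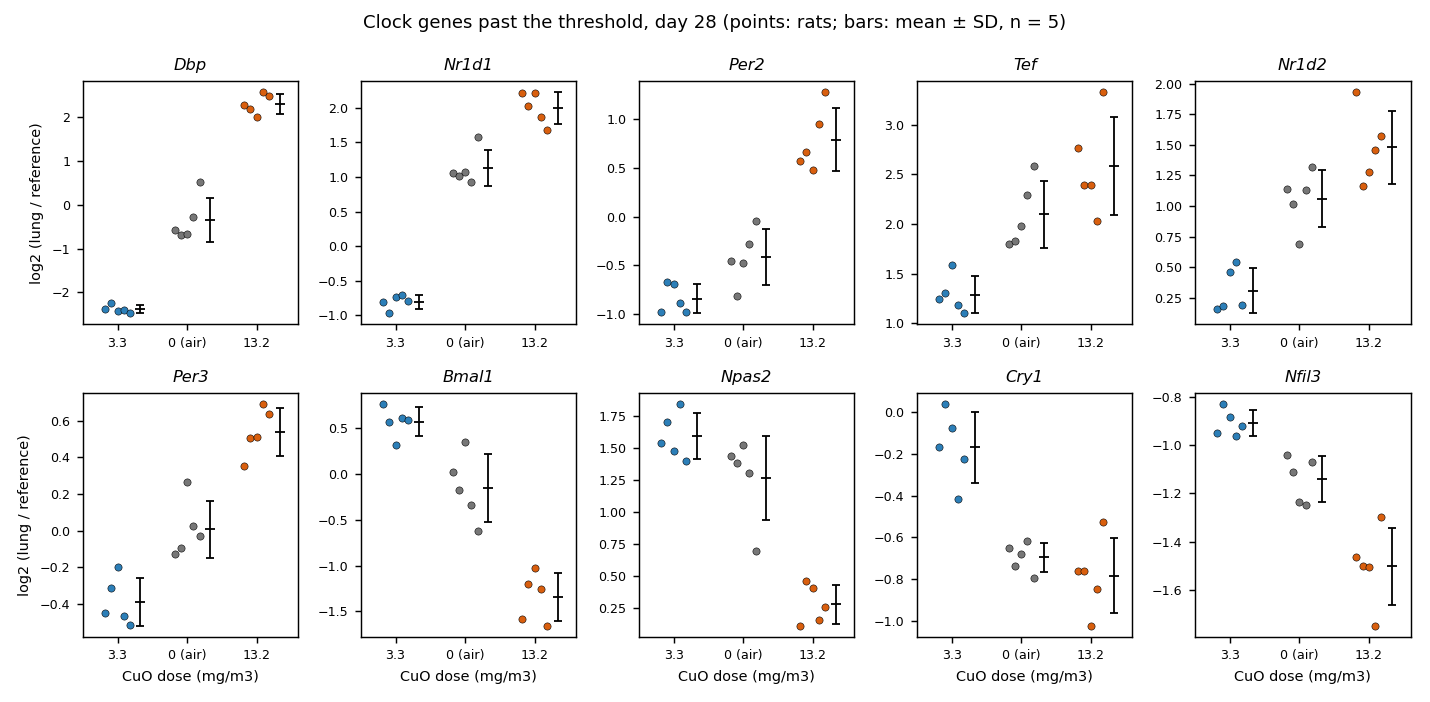
Log2 ratio of lung over reference RNA (y axis) for the 10 called clock genes in rats of the low dose, air and high dose groups on day 28 (x axis, dose in mg/m3). Points are rats and bars the mean ± SD (n = 5). Low and high dose rats do not overlap in any panel, and the air mean lies between the dose means in all 10. The genes were chosen for the distance between the doses.

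On day 28 the air mean lay between the dose means for 27 of the 30 called genes. These genes were chosen for the distance between the doses, which itself favours an air mean between the dose means. The share over all genes was not computed. For Dbp the air rats had log2 ratios of -0.58, -0.69, -0.66, -0.28 and 0.52 (rats 6 to 10), above every low dose rat and below every high dose rat. This did not hold for every clock gene. Among the 10 called clock genes, the low dose rats did not overlap the air rats in 7, and the high dose rats did not in 7. Set against the same air rats, Dbp differed by 2.65 at the high dose (limma adjusted p = 4.5e-08) and differed by -2.04 at the low dose (limma adjusted p = 7.29e-06). Nr1d1 differed from air by 0.87 at the high dose (limma adjusted p = 0.0298) and by -1.94 at the low dose (limma adjusted p = 5.66e-07). Bmal1 differed by -1.19 at the high dose (limma adjusted p = 7.27e-05) and by 0.72 at the low dose (limma adjusted p = 0.14). These paired values share their control rats.

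Against air, limma called 48 genes (0.254%) at the high dose and 3 genes (0.0159%) at the low dose, which were Dbp, Nr1d1 and Nr1d2. Of the 30 genes that differed between the doses, 14 were called at the high dose and 3 at the low dose against air. The count of 48 rested on single rats: it was 9 without air rat 6, 15 without air rat 9, 365 without air rat 8, 221 without high dose rat 84, 23 without high dose rat 81, 23 without high dose rat 83 and 22 without high dose rat 82. Among the air rats, rat 10 lay closest to the high dose side in 8 of the 10 clock genes, for example with 0.52 for Dbp and -0.63 for Bmal1. Clock RNA in lung depends on the hour of death, an hour not given in the sources used here, so hour of sampling and dose cannot be told apart.

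Most of these genes showed another dose difference, or none past the threshold, 1 day after the exposures. On day 6, limma called 2593 genes (13.7%) between the doses; the count was 1640 without high dose rat 79 and 1728 without high dose rat 77. Of the 30 genes of day 28, 16 (53.3%) were among them, which is 0.617% of the day 6 calls, 6 in the same direction and 10 in the opposite one. The dose effect itself differed between the days for 783 genes (4.15%), of which 21 are among the 30, and 9 of these 21 are clock genes. The 30 were chosen by their day 28 difference, which is part of this contrast. A high share among them follows in part from that choice. Dbp was lower at the high dose on day 6, by a log2 difference of -0.87 (limma adjusted p = 0.00877), and Nr1d1 by -1.14 (limma adjusted p = 6.33e-05). From day 6 to day 28 the dose effect on Dbp shifted by 5.56 (SE 0.317, limma adjusted p = 2.77e-12) and that on Nr1d1 by 3.95 (limma adjusted p = 4.78e-11).

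Bmal1 differed between doses by 0.22 on day 6 (limma adjusted p = 0.403), and its dose effect shifted by -2.13 between days (limma adjusted p = 3.33e-07). Npas2 was lower at the high dose on both days, with -0.67 on day 6 (limma adjusted p = 0.00353), and the shift of -0.64 did not pass (limma adjusted p = 0.11). Cry1 and Nfil3 were higher at the high dose on day 6, by 0.51 and 0.47, and lower on day 28. The air rats moved between the days as well: Dbp averaged 2.67 ± 0.276 (SD, n = 5) on day 6 and -0.34 ± 0.504 (SD, n = 5) on day 28, and Bmal1 averaged -2.01 ± 0.224 and -0.15 ± 0.367 (SD, n = 5 each). In 8 of the 10 clock genes the air values of both days did not overlap; these differences were not tested.

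**Figure D3:**
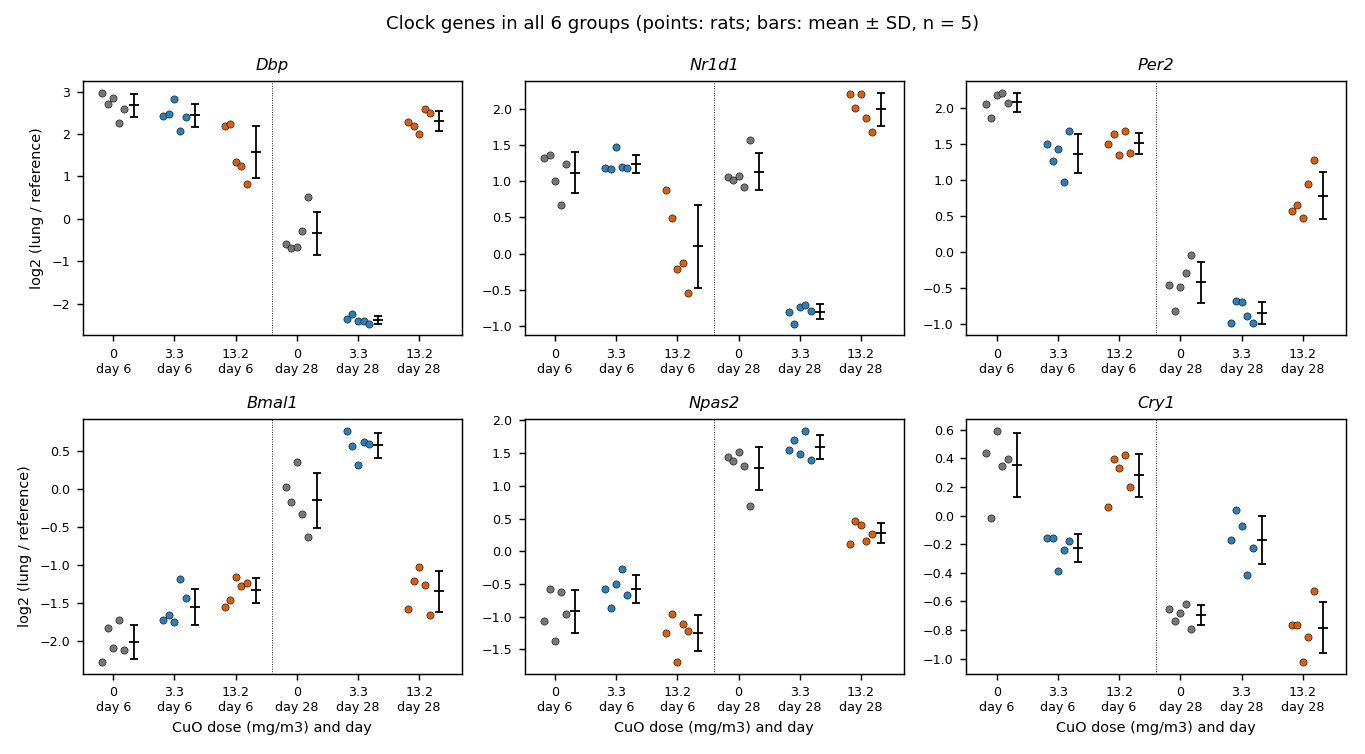
Log2 ratio of lung over reference RNA (y axis) of 6 clock genes in all 6 groups (x axis, dose in mg/m3 and day). Points are rats and bars the mean ± SD (n = 5). The air rats of both days differ too, as for Dbp with means of 2.67 on day 6 and -0.34 on day 28.

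Outside the clock list, 20 genes passed, 17 of them with a symbol. Tspan4, a tetraspanin of the cell membrane, had log2 ratios of -1.12, -1.21, -1.12, -1.29 and -1.18 in the low dose rats and -0.47, -0.36, -0.34, -0.38 and -0.32 in the high dose rats. It rose by 0.81 (SE 0.0921), or 1.75-fold (limma adjusted p = 5.37e-06), and the 5 air rats sat between, from -0.88 to -0.79. Ccdc116, a coiled-coil protein, rose by 0.98 (SE 0.159, limma adjusted p = 0.00148), and by 1.80 from processed signals (limma adjusted p = 0.0484). Dgat2, which makes triglycerides, lay between -0.49 and -0.19 at the low dose and between 0.05 and 0.52 at the high dose, and rose by 0.62 (SE 0.12, limma adjusted p = 0.0182). Its dose effect was opposite on day 6, at -0.62 (limma adjusted p = 0.000587).

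Smaller rises came from Rasl10a, a small GTPase of the Ras family, by 0.56, Kifc3, a kinesin motor, by 0.47, Fam76a by 0.38 and Bri3 by 0.31, with limma adjusted p-values of 0.02 to 0.0401. The unnamed transcripts XM_001073964 and ENSRNOT00000061930 rose by 0.74 and 0.53.

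Adm, which encodes the vasodilator peptide adrenomedullin, had log2 ratios of -0.44, -0.13, 0.43, -0.04 and -0.41 in the low dose rats and -1.1, -1.43, -1.50, -1.36 and -1.13 in the high dose rats. It fell by 1.18 on the log2 scale (SE 0.167), 2.27-fold (limma adjusted p = 0.000223). Low dose rat 54 was the highest, and the groups did not overlap. Against air, Adm differed by -0.91 at the high dose (limma adjusted p = 0.0102) and by 0.27 at the low dose (limma adjusted p = 0.708).

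Fibin, a secreted protein named for fin bud development in zebrafish, was 3.25, 3.27, 2.87, 3.84 and 3.68 at the low dose and 1.53, 2.19, 2.85, 2.55 and 1.87 at the high dose. It fell by 1.19 (SE 0.2, limma adjusted p = 0.00219) and the lowest low dose rat stood just above the highest high dose rat; in a fit of both groups alone its adjusted p was 0.257. Rflnb, a regulator of filamin, fell by 0.93 (SE 0.141, limma adjusted p = 0.000664). Cdkn2b, which encodes the cell cycle inhibitor p15, lay between 1.93 and 2.27 at the low dose and between 1.05 and 1.55 at the high dose, and fell by 0.75 (SE 0.124, limma adjusted p = 0.00167; 0.0924 with median centring). The dimmer Cdkn2b probe differed by -0.46, with an adjusted p of 0.551 over all probes in limma. The dose effect on Cdkn2b was -0.88 on day 6 (limma adjusted p = 1.08e-05) and did not pass the test of a difference between days (limma adjusted p = 0.811).

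G0s2, an inhibitor of the triglyceride lipase ATGL, fell by 0.69 (SE 0.14, limma adjusted p = 0.0263). Pde2a, a phosphodiesterase that cyclic GMP switches on, fell by 0.56 (SE 0.12, limma adjusted p = 0.0435) and Aifm2, which encodes the ferroptosis suppressor FSP1, by 0.50 (SE 0.0786, limma adjusted p = 0.00104). Pde2a missed the threshold in 18 of 24 alternative settings, among them slide as a block (limma adjusted p = 0.0875). Aifm2 missed it with probes averaged (limma adjusted p = 0.118) and in a fit of both groups alone (limma adjusted p = 0.266). Kctd3 fell by 0.45, Tead3, a transcription factor of the Hippo pathway, by 0.40 and the unnamed transcript NM_001107636 by 0.31, with limma adjusted p-values of 0.00519 to 0.0381. Kctd3 missed the threshold under 4 settings, with limma adjusted p-values of 0.069 with probes averaged, 0.0773 with median centring, 0.106 from processed signals and 0.242 in a fit of both groups alone. All 27 called genes with a symbol had within-slide differences of 1 sign in all 4 slides. Of the 27, 11 had further probes. All 13 further probes differed in the direction of the brightest probe, and 6 of the 13 passed. Leaving out 1 rat lost the call of 9 of the 27, among them Dgat2, Rasl10a, Kifc3, Fam76a, Bri3, G0s2, Pde2a and Tead3. Over all 24 alternative settings, Fam76a missed the threshold in 16 and Rasl10a in 15. Kifc3, G0s2 and Tead3 missed it in 11 each, and Dgat2 and Bri3 in 10 each.

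Elastin was the largest difference among the lung matrix genes, and its call depended on the probe. Eln, the protein of elastic fibres, had log2 ratios of 2.44, 2.87, 2.89, 2.89 and 2.65 in the low dose rats and 1.53, 1.62, 1.82, 1.36 and 1.55 in the high dose rats. The groups did not overlap, yet on the brighter of its 2 probes, which stands for the gene here, the difference of -1.17 (SE 0.265, 95% interval -1.72 to -0.63) had a limma adjusted p of 0.0678. The other probe differed by -1.39 (SE 0.15), with an adjusted p of 1.44e-06 over all probes in limma. Eln passed with probes averaged (limma adjusted p = 0.000286) and in a fit of both groups alone (limma adjusted p = 0.000861). Against air Eln differed by -1.51 at the high dose (limma adjusted p = 0.0083) and by -0.33 at the low dose (limma adjusted p = 0.725). Of 27 measured fibroblast and matrix genes 0 passed, with a list median of -0.13. An unadjusted limma p under 0.05 was found for 7 of the 27, against 2.95% of all genes tested. Fn1 (fibronectin) differed by -0.42, and by -0.18 on its dimmer probe. Pdgfra, a fibroblast receptor, differed by -0.47, Loxl1, an elastin crosslinker, by -0.61, and Fbn1 (fibrillin) by -0.47. Each had a limma adjusted p of 0.406 or more, and the last 3 were named after their values were seen. Other members fell less or rose, among them Fbln5 at -0.08, Mfap5 at -0.11, Postn at 0.05 and Tnc at 0.17. These too were named after their values were seen.

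No gene of the 37 other lists passed. These lists, of immune, cell type, stress, metabolic and cell cycle genes, hold 746 distinct genes outside the clock list. Of these 0 passed in limma and 35 (4.69%) had an unadjusted p under 0.05, against 2.95% of all genes tested. On day 6, 242 of them (32.4%) differed between the doses, against 13.7% of all genes tested. The lists were drawn up with earlier results of these data known. List medians of the log2 difference on day 28 ran from -0.19 (smooth muscle and pericyte markers) to 0.11 (alveolar type II cell markers), against -0.0042 for all genes. The clock list's median was 0.39, with members from -1.92 to 4.69.

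**Figure D4:**
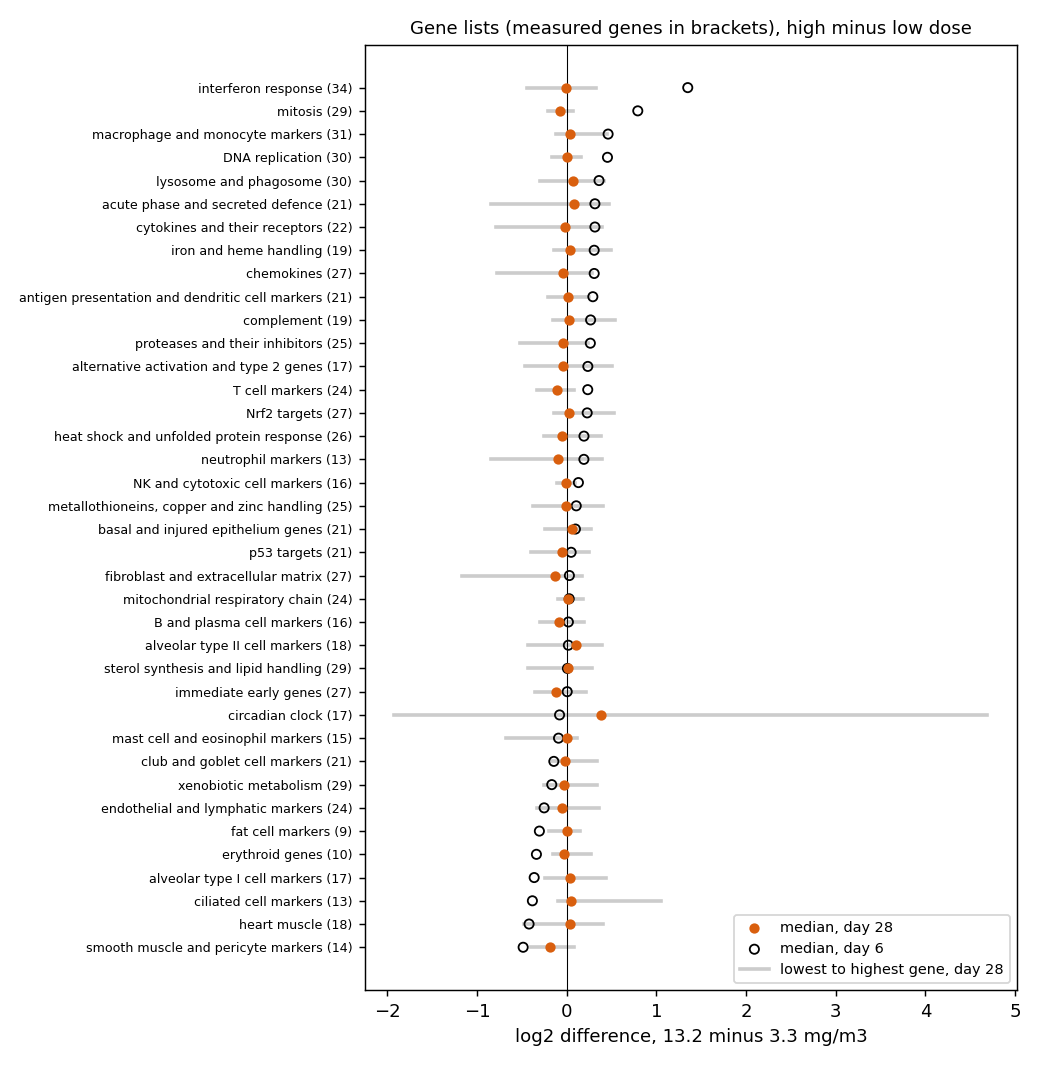
Median log2 difference between high and low dose (x axis) of 38 gene lists (y axis, number of measured genes in brackets) on day 28 and day 6, with the range of the members on day 28. The day 28 medians sit near 0 apart from the clock list at 0.39, whereas the interferon list had a median of 1.35 on day 6.

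Interferon response genes, the antiviral programme, had a median difference of 1.35 on day 6, with 32 of 34 called, and of -0.0047 on day 28, with 0 called and a range of -0.44 (Bst2) to 0.33. Mitosis genes had a median of 0.79 on day 6, with 28 of 29 called, and of -0.08 on day 28, within -0.21 to 0.07. DNA replication genes went from 0.46, with 23 of 30 called, to 0.0046. Lysosome and phagosome genes had 12 of 30 called on day 6 and 0 on day 28. Macrophage and monocyte markers had 13 of 31 called on day 6, 11 higher and 2 lower at the high dose, and 0 on day 28. Over all genes tested, 13.7% were called on day 6 and 0.159% on day 28.

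Chemokines, the attractants of leukocytes, had 15 of 27 called on day 6, 11 higher and 4 lower at the high dose, and 0 on day 28. Ccl2, which draws monocytes, was -4.68, -3.05, -4.98, -4.44 and -4.62 in the low dose rats and -4.25, -4.01, -4.14, -5.27 and -5.56 in the high dose rats. The groups overlapped, and low dose rat 53 was the highest. The difference was -0.29 (95% interval -1.14 to 0.55), against 2.46 on day 6 (limma adjusted p = 0.000118), and the dose effect differed between the days (limma adjusted p = 0.00426). Ccl7 and Ccl12, of the same family, differed by -0.16 (95% interval -0.78 to 0.46) and 0.19 (95% interval -0.52 to 0.89) on day 28. The neutrophil attractant Cxcl1 differed by -0.41 (95% interval -0.85 to 0.03) and Il1b, a central inflammatory cytokine, by -0.79 (limma adjusted p = 0.571).

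Neutrophil markers had a median of -0.09 with 0 of 13 called. An unadjusted limma p under 0.05 was found for 4 of the 13, against 2.95% of all genes tested. The 13 ranged from -0.845 to 0.397, and 1 of them did not overlap between the doses. S100a9, a subunit of the neutrophil protein calprotectin, had log2 ratios of 4.28, 5.07, 3.77, 4.58 and 4.81 at the low dose and 4.35, 3.22, 3.39, 4.53 and 2.79 at the high dose. The groups overlapped, the difference was -0.85 (95% interval -1.49 to -0.20), and the limma adjusted p was 1. S100a8, the other calprotectin subunit, differed by -0.84 (95% interval -1.42 to -0.26, limma adjusted p = 0.849), and its groups overlapped. Lcn2, an iron-binding defence protein, differed by 0.47 (95% interval -0.22 to 1.15). The macrophage genes Spp1, Mmp12 and Gpnmb differed by -0.06, 0.05 and 0.41, and their dose groups overlapped.

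Listed copper and oxidant response genes were not called either. The metallothioneins Mt1 and Mt2A, which bind copper and zinc, differed by 0.20 (95% interval -0.25 to 0.65) and -0.10 (95% interval -0.47 to 0.27) on day 28, against 1.19 and 1.12 on day 6. Hmox1, which breaks down heme, differed by -0.14 (95% interval -0.74 to 0.46) and Slc7a11, the cystine importer, by -0.09 (95% interval -0.56 to 0.37), against 1.81 and 1.52 on day 6. The dose effect differed between the days for Mt2A, Hmox1 and Slc7a11 (limma adjusted p = 0.004, 0.00408 and 0.00243). That difference did not pass for Mt1 (limma adjusted p = 0.0712). Of 25 metal handling genes and 27 Nrf2 targets, 0 were called on day 28. The metal handling genes ranged from -0.38 (Cp, ceruloplasmin, limma adjusted p = 0.747) to 0.40 (Steap4). The dose groups of Cp did not overlap, and those of Steap4 did. The Nrf2 targets ranged from -0.139 to 0.531.

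Cycling and epithelial genes were close between the doses. Cdk1, the mitotic kinase, lay between -4.50 and -4.20 at the low dose and between -4.63 and -4.48 at the high dose, a difference of -0.18 (95% interval -0.43 to 0.08), and Rrm2, a ribonucleotide reductase subunit, differed by -0.16 (95% interval -0.56 to 0.23). Sftpc differed by 0.08 (95% interval -0.38 to 0.55), Ager by 0.06 (95% interval -0.14 to 0.26) and Scgb1a1, the club cell secretory protein, by 0.02 (95% interval -0.26 to 0.30). Not every epithelial gene was as close. Scnn1g, an alveolar type I list member, differed by 0.44 (SE 0.126, limma adjusted p = 0.378), and its dose groups did not overlap. The 17 measured members of that list had a median of 0.04 and ranged from -0.245 to 0.444, with 0 called. In all, 0 of 20 genes of a panel of inflammation, metal, oxidant, cycling and epithelial genes passed on day 28 and 13 of 20 on day 6, and the dose effect differed between days for 10. Over all genes tested, 13.7% passed on day 6 and 4.15% had a dose effect that differed between days. The panel was chosen with earlier results of these data known. A p that misses the threshold does not show that the doses acted alike, and these intervals give the differences still allowed.

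**Figure D5:**
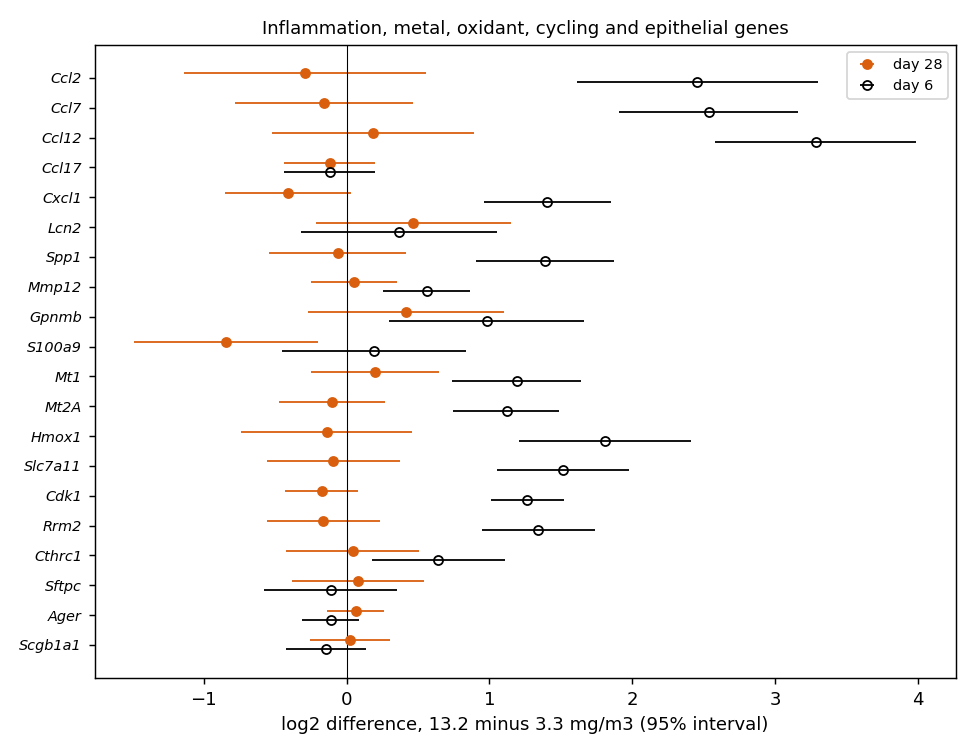
Log2 difference between high and low dose with its 95% interval (x axis) for 20 panel genes (y axis) on day 28 and day 6. On day 28 the differences lie between -0.85 and 0.47, and on day 6 that of Ccl12 reaches 3.29.

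Markers of other tissues that a lung sample can hold did not separate the doses. The mean log2 ratio of 18 heart muscle genes ranged from -1.3 to 0.55 in the low dose rats and from -1.28 to 0.51 in the high dose rats, and 0 were called. The 10 erythroid genes ranged from 2.54 to 2.81 and from 2.51 to 2.98, and the 9 fat cell genes from -0.76 to -0.54 and from -0.75 to -0.47. T cell markers had a median of -0.11 and B and plasma cell markers of -0.09, with 0 called in either list.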

How the data were processed

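RNA of 1 rat's lung (Cy5) and a common reference (Cy3) was hybridised on each of 30 2-colour Agilent arrays with 62976 spots. Per the labels' protocols the RNA integrity number was above 7. The labels disagree on whether the reference was mouse or rat RNA; being common to the arrays, it cancels from group differences. Spot and background intensity values were deposited as scanner output of Agilent Feature Extraction 11.0.1.1, per the file headers. The authors also deposited a table of log2 ratios, its normalization not given in the sources used here, which served as an alternative.

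Median spot intensities were corrected by normexp (offset 50). On the arrays of rats 81 and 52 a few bright background spots pulled that fit (r with the authors' log2 ratios 0.9672 and 0.9895, across probes), so backgrounds that the scanner flagged as outliers were replaced by the array's median background; r became 0.9979 and 0.9965. This repair was chosen from the array diagnostics after seeing the data, and every spot's own background is an alternative. Loess within arrays gave log2 Cy5 over Cy3. Outlier-flagged spots were left out, 4259 control spots dropped, and spots of a probe averaged. Probes well above background on at least 5 of 30 arrays were kept (21380 of 30367), and the brightest probe stood for a gene, giving 18889 genes, 11665 of them with a RefSeq GRCr8 symbol and 7224 under the files' identifiers.

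The group means of 6 groups of 5 rats were fitted with limma 3.58.1 (R 4.3.3) and p-values adjusted by Benjamini-Hochberg over all genes of a contrast, with a threshold of 0.05. Adjusted p-values, SEs and 95% intervals come from this fit. Precision is limited by 5 rats a group, with a median SE of 0.111 (log2). The fit was tested on simulated data. Groups come from the labels. Alternatives were the background, normalization, filter, probe rule, slide (4 slides), the groups in the fit, the spread model and each rat left out.

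The genes named were the largest called increases and decreases whose groups did not overlap, the remaining called genes, all clock list members, the 2 genes of smallest p in each list (a selection is given) and a panel of 20 genes. A further gene taken by this rule is not reported here. The comparison, the lists, the panel and the rule were chosen with earlier results of these data known.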

Additional observations from a re-analysis of the deposited data

Results flagged for a closer look

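Of 121 named genes, 42 had a dose effect (log2, high minus low) that differed between day 28 and day 6 by the test of that difference (limma, adjusted p under 0.05). Over all genes tested the count was 783 (4.15%). Many of the 121 were named for their day 28 difference, which is part of that test, or with earlier results known. Among the clock genes called on day 28 the effect shifted, day 28 minus day 6, for Dbp by 5.56, Nr1d1 by 3.95, Per2 by 1.49, Tef by 1.92, Nr1d2 by 1.57, Per3 by 0.90, Bmal1 by -2.13, Cry1 by -1.12 and Nfil3 by -1.07. Among the other called genes it shifted for Ccdc116 by 1.39, Tspan4 by 0.74, Dgat2 by 1.24, Rasl10a by 0.65, Kifc3 by 0.76, Fam76a by 0.48, Fibin by -1.14, Adm by -1.29 and Aifm2 by -0.43. For Pparg the effect turned from -0.73 on day 6 to 0.45 on day 28, and for Etv5 from -0.48 to 0.19. For Herpud1 it turned from -0.20 to 0.38, and for Ciart from -0.20 to 0.25. Ciart was not well above background on any low dose array of day 28. Genes not called on day 28 with an upward shift were Pparg by 1.18, Etv5 by 0.68, Herpud1 by 0.58 and Ciart by 0.45. Those with a smaller or more negative effect on day 28 were Cx3cl1 by -1.26, Cxcl1 by -1.81, Il1b by -1.27, S100a8 by -1.46, Mmp14 by -1.15, Cdk1 by -1.44, Mx2 by -1.40, Ccl2 by -2.75, Ccl7 by -2.70, Ccl12 by -3.10, Spp1 by -1.45, Mt2A by -1.22, Hmox1 by -1.95 and Slc7a11 by -1.61, and further Blnk by -1.07, Fn1 by -0.94, Kif2c by -0.64, Bst2 by -0.97, Bbc3 by -0.49 and Rrm2 by -1.50. No cause of these shifts was tested.

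In 242 combinations of a named gene and a dose group of day 28, 4 had 1 rat standing apart from the other 4 by the gap in their log2 ratios; chance flags about 1 in 20. Low dose rat 53 had 3.98 for Il1b, against 2.17 to 2.51 in the other rats of its group, and -3.05 for Ccl2, against -4.98 to -4.44. Low dose rat 54 had -0.86 for Hbegf, against -0.56 to -0.49, and low dose rat 52 had -1.61 for Rfc5, against -1.89 to -1.84. No clock gene was among them.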

How the results depend on the processing

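The 10 clock genes all kept their direction in all 24 alternatives, and 8 of them stayed past the threshold in each; limma's adjusted p for Tef (0.0535) and Cry1 (0.121) missed it when only both dose groups were fitted. The count of 30 genes between the doses on day 28 was 20 to 28 when 1 rat was left out, 14 in a fit of only the groups compared (8 clock genes, fewer degrees of freedom), 19 at 1.5-fold or more, 20 with median centring and 36 with slide as a block. For the high dose against air on day 28 the 48 genes became 29 at 1.5-fold, 117 from quantile-normalized Cy5 alone, 17 in a fit of only those groups, and 9 to 365 without 1 rat. Low dose against air gave 5 genes from Cy5 alone, 5 from processed signals, 5 with slide as a block and 2 to 4 without 1 rat, in place of 3. On day 6 the 2593 genes became 881 at 1.5-fold and 1640 to 2970 without 1 rat. The 783 genes whose dose effect differed between days became 472 with median centring, 507 from processed signals and 587 to 1106 without 1 rat. The causes were not tested.

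The direction of some small differences between the doses on day 28, none of them past the threshold, turned. From processed signals Spp1 was 0.0015. With slide as a block Cthrc1 was -0.041, Sftpc -0.047 and Scgb1a1 -0.039. With each spot's own background Kif2c was 0.0072, Slc7a11 0.10 and Cthrc1 -0.029. Without rats 81 and 52 Gzmc was 0.17 and Scgb1a1 -0.020. Without 1 rat at a time Ccl2 ran from -0.45 to 0.034, Spp1 from -0.15 to 0.049, Cthrc1 from -0.12 to 0.15, Gzmc from -0.24 to 0.060, Sftpc from -0.045 to 0.22, Scgb1a1 from -0.050 to 0.082, Ctsw from -0.21 to 0.016 and Mt2A from -0.20 to 0.014. Ciart (limma adjusted p = 0.0162 from processed signals) and Cry2 (limma adjusted p = 0.0261 from the authors' log2 ratios and 0.0323 without low dose rat 54) passed under those settings. No paired analysis was possible because the groups share no rat numbers. Signal over background limits dim genes such as Ciart.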
